A study of Mus musculus with 9 samples.

Results

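The HGF and EGF receptor group covers 10 genes: the growth factor gene Hgf and its receptor gene Met, the receptor genes Egfr and Erbb3, and the EGF receptor ligand genes Egf, Tgfa, Areg, Ereg, Hbegf and Btc. They were chosen by name, and all 10 were found among the 34745 genes of the table. Of these, 9 passed the filter on low counts and were tested with 14134 genes, and Areg did not pass. RNA sequencing of messenger RNA was carried out on 9 liver samples of 12-week-old C57BL/6 mice, in 3 groups of 3. WT with NC (replicates 1, 2 and 3) and WT with CCl4 (replicates 11, 12 and 13) were read as the Tgfbr2f/f animals of the series, in which Tgfbr2, the type 2 receptor of TGF-beta, is floxed. KO with CCl4 (samples 72, 75 and 79) was read as Tgfbr2HKO. Carbon tetrachloride (CCl4) is a solvent that injures hepatocytes after cytochrome P450 activates it, and it was given into the abdomen in olive oil at 0.25 ml per kg, 2 times a week over 4 weeks. Neither the promoter or Cre behind HKO nor the meaning of NC is stated in the labels, and a KO group without CCl4 was not analysed here.

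Hepatocyte growth factor (HGF) is secreted as an inactive precursor, mainly by stellate and endothelial cells in the liver, and becomes active after a protease cuts it. It then binds MET, a tyrosine kinase receptor on hepatocytes. The EGF receptor is abundant on hepatocytes, and its ligands are made as membrane-bound precursors that metalloproteases such as ADAM17 release. ERBB3 has little kinase activity of its own, binds neuregulins and signals in pairs with its relatives. Both pathways drive hepatocyte division after the liver is injured or partly removed, while TGF-beta restrains it.

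Library totals lay between 16447353 and 20373585 counts, and 3 counts in 1 library stood for 0.141 to 0.207 CPM (counts scaled to a common library size, with TMM). Tgfbr2 stood at 30.2 to 38.6 CPM in WT NC, at 75.2 to 126.6 CPM in WT CCl4, and at 23.6 and 28.3 CPM in KO 72 and KO 79. The library labelled KO 75 had 69.95 CPM, above every WT NC library and near the lowest WT CCl4 library, unlike KO 72 and KO 79. Its summed stellate and macrophage markers, at 1644 and 3319 CPM, also lay within the WT CCl4 range. Whether its genotype matches its label was not tested, nor was the part of its cell content in its Tgfbr2 level. KO 75 is counted with the KO group as labelled, and the fold changes of the members that involve KO are also given without it. It was singled out after its values in these same data were seen. Fits without it have only KO 72 and KO 79 in the KO group, and their p-values take no account of that choice. Mitochondrial genes took 9.13% to 12.0% of counts in WT NC, 25.4% to 26.3% in WT CCl4 and 19.3% to 21.0% in KO CCl4, and their part in the results was not tested beyond a fit without them, which kept the number of members called in each comparison. The labels name liver as the source and hepatocyte as the cell type. The 10 hepatocyte markers summed to 99200 to 117400 CPM in WT NC, and markers of stellate, endothelial, macrophage and bile duct cells were detected in every group. In such bulk samples, fewer cells of a type and less RNA per cell cannot be told apart. No label states whether each sample came from its own animal, and the p-values therefore reflect only how far these samples differed.

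Receptors were the most abundant members in WT NC liver. Per length, Egfr led at 52.5 ± 3.87 FPKM, followed by Erbb3 at 20.0 ± 1.75, Met at 6.10 ± 2.30 and Tgfa at 3.10 ± 0.309 FPKM (fragments scaled by gene length and library size, SD, n = 3), and the libraries of these neighbours in the order did not overlap. Hgf came next at 0.593 ± 0.184 FPKM, with libraries overlapping those of Hbegf (0.328 ± 0.113 FPKM), which in turn overlapped those of Btc (0.211 ± 0.0347 FPKM). Ereg, Egf and Areg had means of 0.101, 0.0375 and 0.0334 FPKM, and their libraries overlapped in the order given. With CCl4 in WT the order was different, with Egfr at 9.22 ± 0.778 FPKM, Hbegf at 8.68 ± 6.90 and Hgf at 5.04 ± 0.938 FPKM, and each neighbour from Egfr down to Areg overlapped the next. In the KO libraries Egfr again stood alone at the top, at 31.98 ± 16.2 FPKM, and all other neighbours overlapped.

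**Figure D1:**
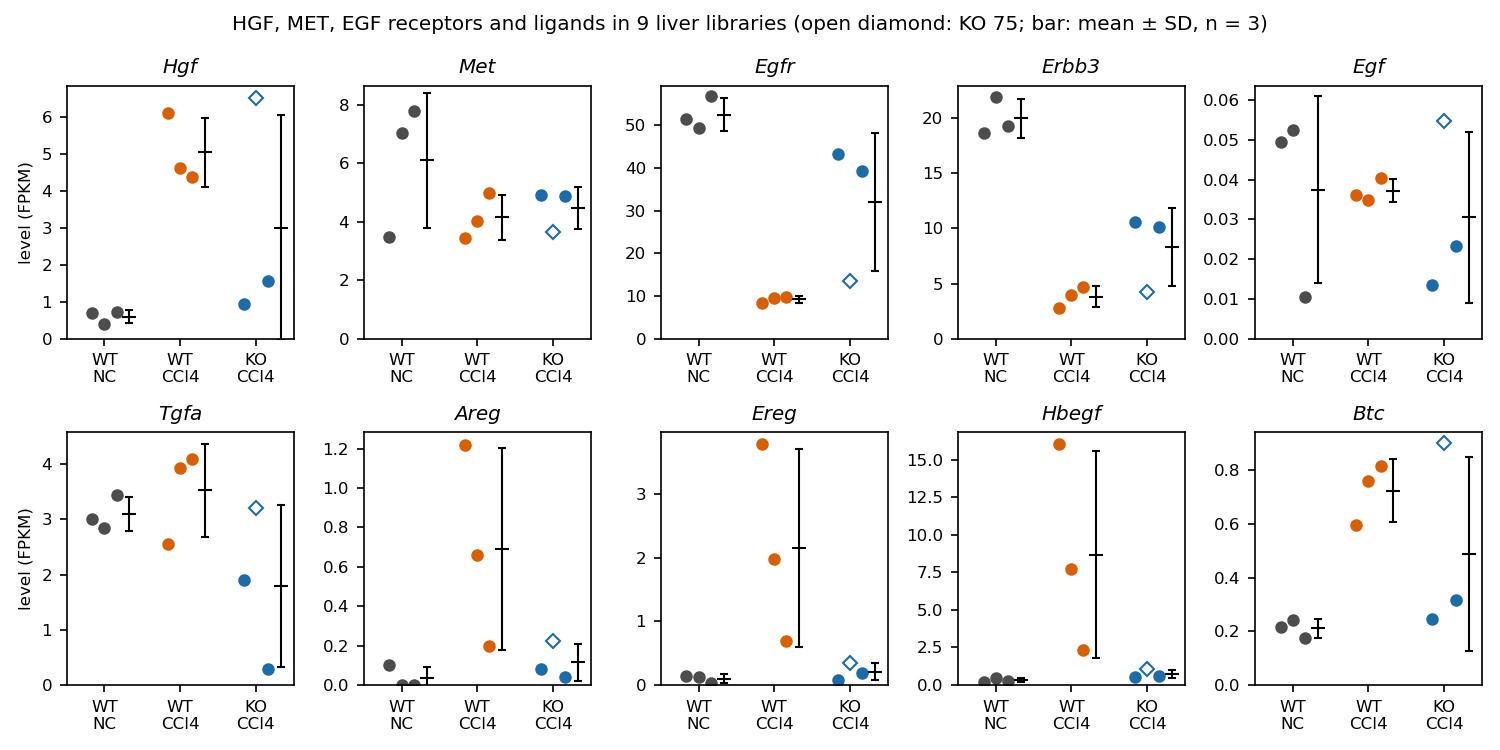
Level of each of the 10 genes in FPKM (y axis, linear and starting at 0, its range set for each gene) in every library of WT NC, WT CCl4 and KO CCl4. Points are libraries, the open diamond is KO 75, and the black bar is the mean ± SD of the 3 libraries, cut off at 0. Egfr and Erbb3 are lowest in WT CCl4, Ereg, Hbegf and Areg are highest there, and KO 75 sits near WT CCl4 for Hgf, Egfr, Erbb3 and Btc but not for Ereg and Hbegf.

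The first comparison asked what repeated CCl4 did to these genes in WT liver. The receptors Egfr and Erbb3 fell about 7-fold, Met fell less, and the ligands Hbegf, Ereg, Hgf and Btc rose. Of the 9 members tested, 4 rose and 3 fell, where 29.5% of all genes tested rose and 25.0% fell in edgeR's quasi-likelihood test. The libraries of both groups did not overlap for 6 of the 9 members, against 66.3% of all genes. The median log2 fold change was -0.15 for the members and 0.04 for all genes tested, and the median size of the change regardless of sign was 2.74 and 0.80.

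Egfr encodes the receptor for all of the EGF-type ligands in the group (gene identifier ENSMUSG00000020122, chromosome 11, 16752203 to 16918158, plus strand, mm10). It stood at 689, 700.1 and 730 CPM in WT NC and at 87.1, 101.6 and 106 CPM in WT CCl4. The groups lay far apart and varied little within themselves. The fall was 7.20-fold (log2 fold change -2.85 ± 0.46 SE, adjusted p = 0.00155 in edgeR's test), and it held in each of the 9 fits that left out a library. The window around its RefSeq start is shown because Egfr was the most abundant member and changed in both main comparisons (chr11:16751953-16752252, GRCm38.p6, plus strand, 250 bases before the start and 50 from it).
Egfr: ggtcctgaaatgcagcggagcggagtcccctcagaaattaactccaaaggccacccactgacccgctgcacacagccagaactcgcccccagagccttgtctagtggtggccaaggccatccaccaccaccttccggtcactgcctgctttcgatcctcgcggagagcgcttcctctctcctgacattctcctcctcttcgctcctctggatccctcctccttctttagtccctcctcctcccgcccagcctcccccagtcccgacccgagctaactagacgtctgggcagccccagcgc
It is rich in G and C (62.3%, against a median of 52.7% over 32851 RefSeq promoter windows) and has 15 CpG (median 7). None of the letters TGANTCA (AP-1), TGACGTCA (CRE), TGACG (the short form of the CRE, part of the former) or GGAAGT (ETS) was found on either strand.

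Erbb3, the neuregulin receptor that pairs with EGFR and ERBB2 (ENSMUSG00000018166, chromosome 10, 128567523 to 128589652, minus strand, mm10), followed a like course. It had 123, 153.1 and 122 CPM in WT NC and 14.3, 20.4 and 24.9 CPM in WT CCl4. Every CCl4 library lay below every NC library. The fall was 6.68-fold (log2 fold change -2.74 ± 0.42 SE, adjusted p = 0.00132 in edgeR's test) and held in all 9 fits without a library.

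Met, the HGF receptor (ENSMUSG00000009376, chromosome 6, 17463800 to 17573980, plus strand, mm10), had 43.99, 94.0 and 94.4 CPM in WT NC and 33.9, 40.4 and 50.9 CPM in WT CCl4. WT NC replicate 1 lay within the CCl4 range, so the groups overlapped. Met passed narrowly, at a log2 fold change of -0.89 ± 0.33 SE (adjusted p = 0.0456 in edgeR's test). Leaving out any of WT NC replicates 2 and 3, WT CCl4 replicates 11 and 12, or KO 79 ended the call, at adjusted p of up to 0.14 in edgeR's test and log2 fold changes from -1.18 to -0.73 over all fits without a library. In limma on log2(FPKM + 1) and log2(FPKM + 0.1) Met was not called, at -0.41 and -0.48 (adjusted p = 0.194 and 0.202 in limma).

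Hgf (ENSMUSG00000028864, chromosome 5, 16553495 to 16620152, plus strand, mm10) had 8.44, 4.96 and 8.37 CPM in WT NC and 58.7, 44.8 and 43.6 CPM in WT CCl4. All CCl4 libraries lay well above all NC libraries. The rise was 6.74-fold (log2 fold change 2.75 ± 0.56 SE, adjusted p = 0.00352 in edgeR's test) and held in all 9 fits without a library. A pair of predicted genes lies within its span on the same strand, with 60 and 28 counts over all libraries. The window at its annotated start is shown because Hgf rose while its receptor did not (chr5:16553245-16553544, GRCm38.p6, plus strand), with the match to an ETS core in capitals.
Hgf: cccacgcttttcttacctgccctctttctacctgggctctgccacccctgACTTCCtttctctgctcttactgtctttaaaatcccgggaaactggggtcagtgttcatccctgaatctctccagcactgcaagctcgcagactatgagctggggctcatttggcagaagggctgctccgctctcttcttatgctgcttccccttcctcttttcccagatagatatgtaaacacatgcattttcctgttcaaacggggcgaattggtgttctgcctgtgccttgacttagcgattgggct
The match is GGAAGT on the minus strand and starts at position -200, counted from the RefSeq start as 1, and 23.8% of all RefSeq promoter windows hold these letters. The window has 7 CpG, the median over all windows, and no match to TGANTCA, TGACGTCA or TGACG. Another RefSeq window of Hgf (chr5:16553651-16553950, GRCm38.p6, plus strand) held none of these letters and no GGAAGT.

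Markers of the cells known to make or receive these factors moved in the same libraries. In WT with CCl4, 29.5% of all genes rose and 25.0% fell. Of 12 stellate cell and myofibroblast markers 10 rose, with a median log2 fold change of 2.27. Their summed level went from 112 to 289 CPM in WT NC to 1526 to 2510 CPM with CCl4. Endothelial markers rose in 8 of 10 and summed to 305 to 403 CPM in WT NC and 921 to 1148 CPM with CCl4. Hepatocyte markers fell in 8 of 10, with a median of -1.17, and summed to 44770 to 76780 CPM with CCl4. None of these markers was at 0 in any group. The part of such shifts in the rise of Hgf or in the fall of Egfr and Erbb3 was not tested.

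**Figure D2:**
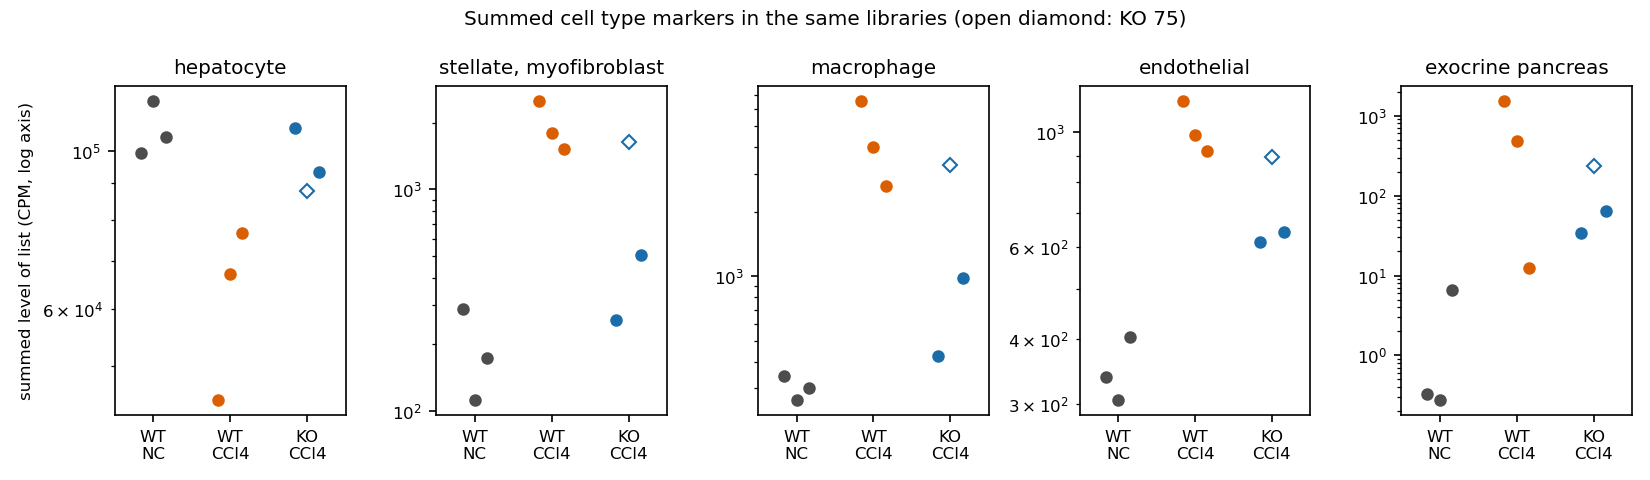
Summed CPM (y axis, logarithmic, its range set for each list) of markers of hepatocytes, stellate cells and myofibroblasts, macrophages, endothelium and exocrine pancreas in every library. Points are libraries and the open diamond is KO 75, which lies in the WT CCl4 range for stellate and macrophage markers and above it for hepatocyte markers.

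Among the EGF receptor ligands, those encoded by early response genes rose most. Hbegf, a heparin-binding ligand that macrophages and injured epithelia release (ENSMUSG00000024486, chromosome 18, 36504929 to 36515805, minus strand, mm10), had 0.598, 1.24 and 0.747 CPM in WT NC. It had 32.4, 15.8 and 4.90 CPM in WT CCl4 replicates 11, 12 and 13. The groups did not overlap, but the CCl4 libraries differed widely among themselves, with replicate 11 the highest and 13 the lowest. The log2 fold change was 4.36 ± 0.66 SE (20.5-fold, adjusted p = 0.00128 in edgeR's test), and it ranged from 3.58 to 4.80 over the fits without a library, all of which kept the call.

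Ereg encodes epiregulin, which activates EGFR and ERBB4 (ENSMUSG00000029377, chromosome 5, 91074622 to 91093646, plus strand, mm10). Its levels were 0.665, 0.621 and 0.107 CPM in WT NC and 13.3, 7.06 and 2.53 CPM in WT CCl4, again without overlap and with replicate 11 highest. It rose 16.7-fold (log2 fold change 4.06 ± 0.79 SE, adjusted p = 0.00293 in edgeR's test), and all 9 fits without a library kept the call, at 3.39 to 4.48.

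Areg, amphiregulin, lies next to Ereg and was sparsely counted. It had 2, 0 and 0 counts in WT NC, 25, 14 and 4 counts in WT CCl4, and 2, 5 and 1 counts in KO 72, 75 and 79. Each CCl4 library of WT exceeded each NC library. Pooled over the group the ratio of CCl4 to NC was 17.6-fold, with an exact 95% interval of 4.58 to 150 that covers counting error only.

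Btc, betacellulin, a ligand of EGFR and ERBB4 (ENSMUSG00000082361, chromosome 5, 91357261 to 91402994, minus strand, mm10), had 1.79, 2.14 and 1.39 CPM in WT NC and 3.85, 4.99 and 5.48 CPM in WT CCl4. The groups did not overlap, and replicate 11, the highest for Hbegf and Ereg, was the lowest of the 3 CCl4 libraries here. The rise was 2.69-fold (log2 fold change 1.43 ± 0.41 SE, adjusted p = 0.0159 in edgeR's test), a call lost without WT NC replicate 3 (adjusted p = 0.0584 in edgeR's test).

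Tgfa and Egf did not pass. Tgfa, a ligand that hepatocytes make themselves (ENSMUSG00000029999, chromosome 6, 86195223 to 86275719, plus strand, mm10), had 24.0, 24.0 and 26.3 CPM in WT NC and 15.9, 24.7 and 26.4 CPM in WT CCl4. The ranges overlapped, with a log2 fold change of -0.15 ± 0.58 SE (adjusted p = 0.841 in edgeR's test). Egf, the founding ligand, which reaches the liver largely from other organs (ENSMUSG00000028017, chromosome 3, 129677565 to 129755316, minus strand, mm10), had between 3 and 15 counts in each of the 9 libraries. Its log2 fold change was -0.35 ± 0.67 SE (adjusted p = 0.679 in edgeR's test).

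The composition of the ligand pool in FPKM was different between the groups, with Tgfa leading in WT NC and Hbegf leading on average in WT CCl4. Summed over the 6 ligands, levels were 3.75, 3.72 and 3.95 FPKM in WT NC and 24.2, 15.1 and 8.17 FPKM in WT CCl4 replicates 11, 12 and 13. Tgfa took 81.2% ± 5.42 of this sum in WT NC and 10.6%, 26.1% and 50.1% in WT CCl4 replicates 11, 12 and 13. Areg, Ereg and Hbegf together took 12.2% ± 3.74 in WT NC, against 65.0% ± 23.9 in WT CCl4 (SD, n = 3 each). In WT CCl4 replicate 13 Tgfa was still the largest single share and Hbegf took 28.6%, while in replicates 11 and 12 Hbegf took 66.2% and 51.1%. The lead of Hbegf depends on the scaling by length. In CPM, which leaves length out, Hbegf took 48.2%, 29.35% and 12.2% in replicates 11, 12 and 13. Tgfa took 23.7%, 46.1% and 65.9% there.

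**Figure D3:**
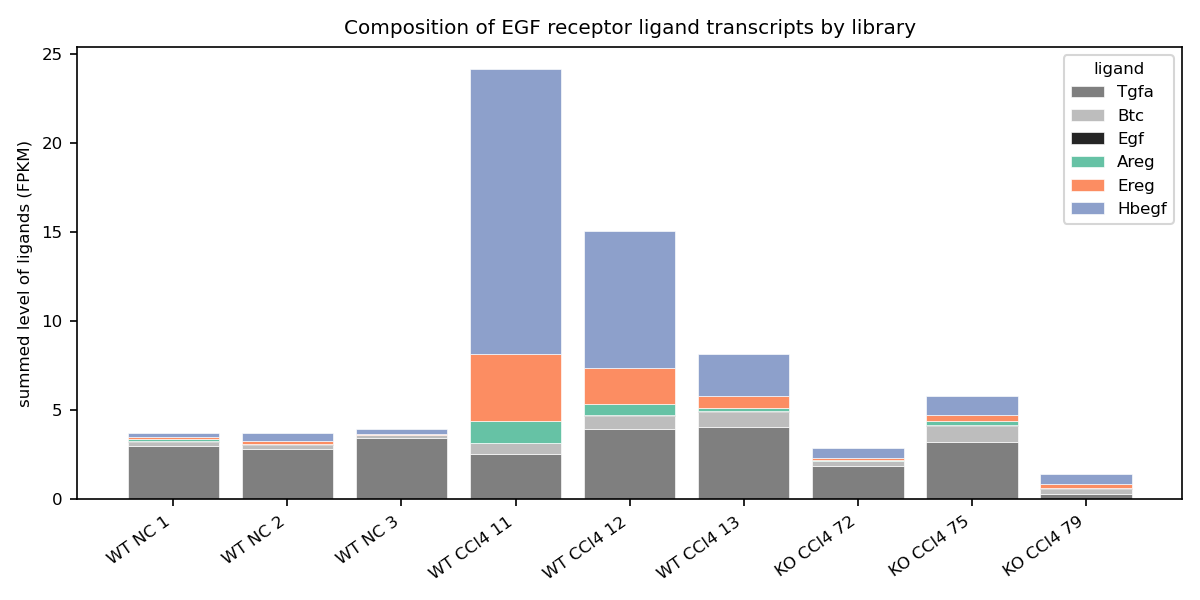
Summed FPKM of the 6 EGF receptor ligands in each library (y axis, linear from 0), with each ligand as a coloured segment. The 3 WT NC bars reach at most 3.95 FPKM and are mostly Tgfa, the WT CCl4 bars reach 8.17 to 24.2 FPKM with a large Hbegf segment, and the KO bars lie between 1.45 and 5.80 FPKM.

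Macrophage markers, of cells that can make Hbegf and Ereg, varied among the same libraries. All 10 rose with CCl4 in WT, where 29.5% of all genes rose and 25.0% fell. The macrophage sum was 6576, 4017 and 2643 CPM in WT CCl4 replicates 11, 12 and 13, against 265 to 342 CPM in WT NC, with none of the list at 0. Neutrophil markers rose in 6 of 6 tested and summed to 2.83 to 6.71 CPM in WT NC and 33.5 to 73.8 CPM with CCl4, with Mpo and Ly6g at 0 in WT NC. Lymphocyte markers rose in 4 of 8, with sums of 3.09 to 4.96 and 7.27 to 21.0 CPM and Gata3 at 0 in WT NC. Bile duct markers rose in 3 of 7 and fell in 1 of 7, with sums of 74.5 to 81.9 and 176 to 423 CPM and none at 0, but most of the sum was Spp1, which macrophages also express. Without Spp1, left out after its values were seen, bile duct sums were 20.6 to 22.1 CPM in WT NC and 43.5, 23.3 and 18.9 CPM in WT CCl4 replicates 11, 12 and 13. Genes of neighbouring tissue were highest in replicate 11 as well, with exocrine pancreas genes (9 of 9 tested higher, Cela3b and Amy2a5 at 0 in WT NC) at 1532, 487 and 12.4 CPM in replicates 11, 12 and 13 and at most 6.67 CPM in WT NC. Mesothelium genes rose in 6 of 6, with Upk3b and Lrrn4 at 0 in WT NC. Without Krt18, a general epithelial keratin left out after its values were seen, the other 5 summed to at most 0.266 CPM in WT NC and to 165, 80.2 and 39.4 CPM in WT CCl4 replicates 11, 12 and 13. The part of these cells in the levels of Hbegf, Ereg, Areg and Btc was not tested.

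Ereg, Areg and Btc share a stretch of chromosome 5 with Epgn, the gene of the EGF receptor ligand epigen (91027464 to 91035215, mm10). Areg (ENSMUSG00000029378, 91139599 to 91148432, plus strand) starts 45.95 kb after the end of Ereg, and Btc lies beyond it on the other strand. Epgn had 1 count in all 9 libraries together. The predicted gene between Areg and Btc, Gm19619, rose as well in WT with CCl4 (log2 fold change 1.59, adjusted p = 0.0137 in edgeR's test), whereas Mthfd2l, before Epgn, stood at 0.15 on that scale (adjusted p = 0.66 in edgeR's test). An antisense predicted gene overlaps the start of Ereg by 152 bases and had 2 counts in all. The Areg window is shown because Areg and its neighbour Ereg both had more counts in each WT CCl4 library than in each WT NC library (chr5:91139349-91139648, GRCm38.p6, plus strand), with matches to the CRE, its short form and the ETS core in capitals.
Areg: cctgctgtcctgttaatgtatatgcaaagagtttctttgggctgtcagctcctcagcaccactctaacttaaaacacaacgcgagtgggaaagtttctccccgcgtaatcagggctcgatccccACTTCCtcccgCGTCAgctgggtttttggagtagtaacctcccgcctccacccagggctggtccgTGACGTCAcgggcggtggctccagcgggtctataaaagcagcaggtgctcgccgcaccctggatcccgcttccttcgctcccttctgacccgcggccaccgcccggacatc
The full CRE, TGACGTCA, reads the same on both strands and starts at position -61, and 1.79% of all RefSeq promoter windows hold it. Both of its ends also count as the short form, TGACG, and another short form starts at position -115 on the minus strand, while 20.8% of all windows hold at least 1. The Btc and Epgn windows each held a single short form and no full CRE, and the Met window held TGAGTCA, a match to TGANTCA, at position -54, letters found in 7.81% of windows.

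The comparison that the series names is KO against WT under CCl4. Egfr was higher in the KO libraries, and Hbegf and Ereg were lower. Of the 9 members tested, 1 rose and 2 fell, where 3.46% of all genes rose and 1.61% fell in edgeR's test, and the libraries of both groups did not overlap for these 3 members (31.7% of all genes). The members' median log2 fold change was -0.39 and that of all genes -0.03. Without KO 75, 10 members were tested, of which 2 rose and 4 fell, against 17.2% and 20.4% of all genes. That fit compares only KO 72 and KO 79 with WT CCl4, after KO 75 was singled out by its values. None of the members was called in any of the fits that left out KO 72, KO 79, WT CCl4 replicate 11 or 12, or a WT NC library, in which 5 to 107 genes were called in all.

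Egfr stood at 631, 144.1 and 540.5 CPM in KO 72, 75 and 79, against 87.1 to 106 CPM in WT CCl4. All KO libraries lay above WT CCl4, but KO 75 by much less than KO 72 and KO 79. The rise was 4.47-fold (log2 fold change 2.16 ± 0.45 SE, adjusted p = 0.0417 in edgeR's test), and without KO 75 the log2 fold change was 2.58 ± 0.15 SE (adjusted p = 6.41e-05 in edgeR's test). Of the 9 fits without a library only that one kept the call, and the others gave adjusted p of up to 0.181 in edgeR's test.

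Erbb3 had 75.7, 22.5 and 68.2 CPM in KO 72, 75 and 79. KO 75 lay within the WT CCl4 range of 14.3 to 24.9 CPM and the other KO libraries lay above it. With all libraries the log2 fold change was 1.48 ± 0.41 SE (adjusted p = 0.0604 in edgeR's test), and without KO 75 it was 1.86 ± 0.22 SE (adjusted p = 0.000877 in edgeR's test). Met had 67.5, 37.0 and 63.4 CPM, of which KO 75 lay within the WT CCl4 range and the other KO libraries above it. It passed neither with all libraries (log2 fold change 0.42 ± 0.33 SE, adjusted p = 0.388 in edgeR's test) nor without KO 75 (0.65 ± 0.31 SE).

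Hbegf stood at 1.55, 2.22 and 1.60 CPM in KO 72, 75 and 79, below the lowest WT CCl4 library of 4.90 CPM. All KO libraries were low, KO 75 among them. The fall was 9.84-fold (log2 fold change -3.30 ± 0.61 SE, adjusted p = 0.0351 in edgeR's test), and it was -3.48 ± 0.73 SE without KO 75. Ereg stood at 0.417, 1.27 and 0.880 CPM, also below each WT CCl4 library, with a log2 fold change of -3.13 ± 0.72 SE (8.76-fold lower, adjusted p = 0.0478 in edgeR's test) and -3.53 ± 0.83 SE without KO 75. Both genes kept their calls in 2 of the 9 fits without a library, those without KO 75 or WT CCl4 replicate 13, and without WT CCl4 replicate 11 the log2 fold changes were nearest to 0, at -2.52 and -2.46. Areg had 8 counts over the KO libraries against 43 over WT CCl4, a pooled ratio of 0.195 (exact 95% interval 0.0794 to 0.421, counting error only), and KO 75 with 5 counts overlapped WT CCl4 replicate 13 with 4. Without KO 75 Areg passed the filter and was not called, at a log2 fold change of -2.97 ± 1.16 SE (adjusted p = 0.0728 in edgeR's test).

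Hgf differed among the KO libraries more than between the groups. It had 12.6, 64.1 and 19.6 CPM in KO 72, 75 and 79, so that KO 75 was above each WT CCl4 library and the other KO libraries were below them all. The log2 fold change was -0.61 ± 0.52 SE with all libraries (adjusted p = 0.427 in edgeR's test) and -1.60 ± 0.29 SE without KO 75 (adjusted p = 0.0039 in edgeR's test). Btc showed the same order, with 2.21, 5.99 and 2.69 CPM, at -0.39 ± 0.39 SE with all libraries (adjusted p = 0.505 in edgeR's test) and -0.96 ± 0.31 SE without KO 75 (adjusted p = 0.0401 in edgeR's test).

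Tgfa had 16.5, 20.5 and 2.31 CPM in KO 72, 75 and 79. KO 79, with 42 counts, was far below the other 8 libraries, which lay between 15.9 and 26.4 CPM, and the other KO libraries lay within the WT CCl4 range. The log2 fold change of -0.77 ± 0.59 SE did not pass (adjusted p = 0.376 in edgeR's test) and was -1.25 ± 0.61 SE without KO 75 (adjusted p = 0.139 in edgeR's test) and -0.27 without KO 79. Egf, at 4, 15 and 7 counts, had a log2 fold change of -0.08 ± 0.68 SE (adjusted p = 0.944 in edgeR's test) and one of -0.59 ± 0.77 SE without KO 75. The summed ligands came to 2.88, 5.80 and 1.45 FPKM in KO 72, 75 and 79, all below the lowest WT CCl4 library. Tgfa took 66.1% and 55.2% of that sum in KO 72 and KO 75 and 19.4% in KO 79, where Hbegf was the largest share at 41.3%.

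**Figure D4:**
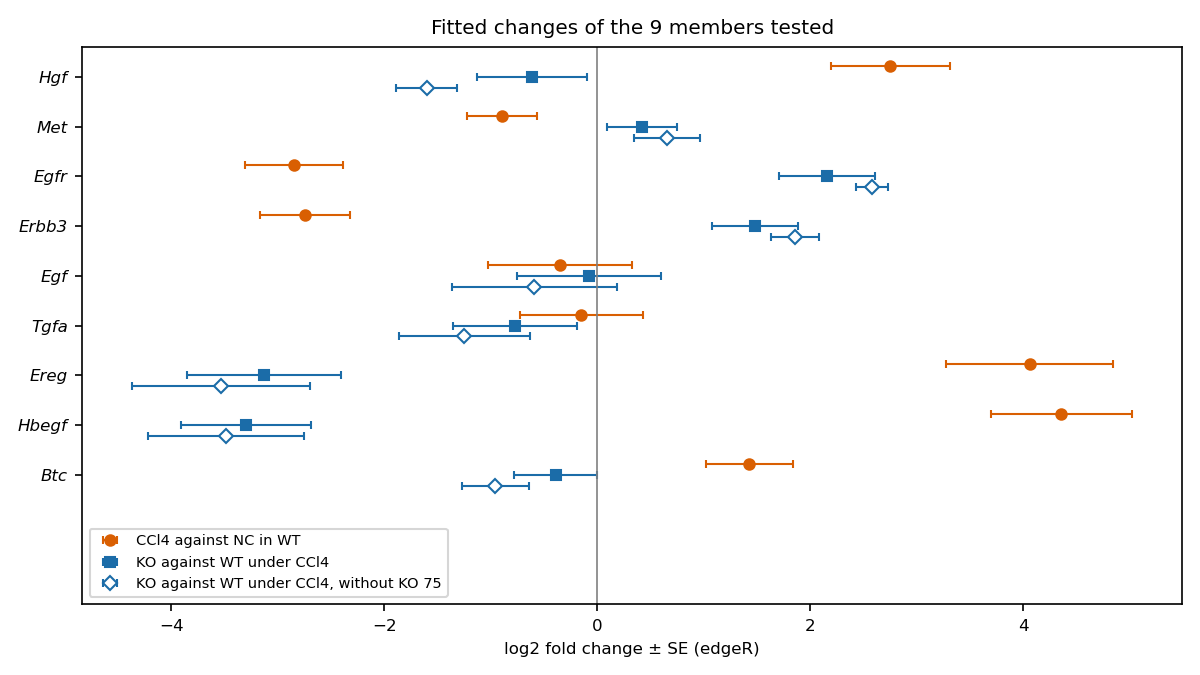
Fitted log2 fold change ± SE (x axis) of the 9 members tested, for CCl4 against NC in WT (circles), KO against WT under CCl4 (squares) and the same without KO 75 (open diamonds). Egfr lies at -2.85, 2.16 and 2.58 and Hbegf at 4.36, -3.30 and -3.48 in these fits, and both comparisons share the WT CCl4 libraries.

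Marker lists separated the KO libraries in the same way as Hgf and Btc. Stellate cell and myofibroblast markers summed to 258, 1644 and 503 CPM in KO 72, 75 and 79, and macrophage markers to 426, 3319 and 983 CPM, so that KO 75 lay within the WT CCl4 range for both and the other KO libraries below it. In the comparison with WT CCl4, 0 of 12 stellate and 0 of 10 macrophage markers were called in edgeR's test. At an unadjusted p under 0.05, 4 and 2 were lower, DESeq2 called 1 lower in each list, and 9 of 12 and 9 of 10 fell without KO 75. Of all genes, 1.61% fell in edgeR's test with all libraries and 20.4% without KO 75. Counts at an unadjusted p or in DESeq2, here and below, come without the matching share of all genes. They cannot be read against the edgeR shares, and DESeq2 called more genes in all in this comparison. Hepatocyte markers rose in 4 of 10, against 3.46% of all genes, with a median log2 fold change of 0.75 and sums of 87790 to 107500 CPM in the KO libraries. Endothelial sums were 614 to 894 CPM in the KO libraries, and exocrine pancreas sums 33.9, 235 and 64.3 CPM. Mesothelium genes other than Krt18 were also highest in KO 75 among the KO libraries, with 5 genes summing to 3.82, 28.7 and 7.70 CPM in KO 72, 75 and 79. These sums lay below the WT CCl4 libraries at 39.4 to 165 CPM, as did Hbegf, Ereg and the endothelial sums. Of the 6 mesothelium genes 0 were called in edgeR's test, 5 were lower at an unadjusted p under 0.05 and in DESeq2, and 5 fell without KO 75. The part of any of these cells in the differences of Hgf, Btc, Egfr, Erbb3, Hbegf, Ereg or Areg was not tested.

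Against WT NC, which shares its libraries with the comparisons above, the KO libraries with CCl4 had shares of called members near those of all genes. Of the 9 tested, 1 rose, against 14.0% of all genes, and 0 fell, against 8.98% of all genes, in edgeR's test. At an unadjusted p under 0.05, 2 were higher and 1 lower, and DESeq2 called 1 higher and 1 lower. The libraries of the groups did not overlap for 6 of 9 members (44.7% of all genes). Hgf was the member that rose, by a log2 fold change of 2.14 ± 0.55 SE with all libraries (adjusted p = 0.0247 in edgeR's test) and 1.15 ± 0.28 SE without KO 75 (adjusted p = 0.0236 in edgeR's test). That call was lost without any 1 of the WT NC libraries, at adjusted p of up to 0.0908 in edgeR's test. Erbb3 had a log2 fold change of -1.26 ± 0.40 SE (adjusted p = 0.0503 in edgeR's test), Egfr one of -0.69 ± 0.43 SE, Btc 1.04 ± 0.41 SE, Hbegf 1.06 ± 0.65 SE, Tgfa -0.92 ± 0.59 SE, Ereg 0.93 ± 0.80 SE, Met -0.47 ± 0.33 SE and Egf -0.43 ± 0.68 SE. Without KO 75, Erbb3 passed, at -0.88 ± 0.23 SE (adjusted p = 0.0317 in edgeR's test). The log2 fold changes without it that did not pass were -0.27 for Egfr, 0.48 for Btc, 0.88 for Hbegf, -1.40 for Tgfa, 0.54 for Ereg, -0.24 for Met, -0.93 for Egf and 0.93 for Areg. With all libraries Areg was not tested, and its pooled ratio of KO to WT NC was 3.44 (exact 95% interval 0.686 to 33.2, counting error only). For Egfr the KO libraries were all below WT NC, with KO 72 at 631 CPM close to the lowest WT NC library of 689 CPM.

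Of 6 other receptors and ligands of both families tested, 2 rose and 1 fell with CCl4 in WT, near the 29.5% and 25.0% of all genes. Nrg1, a neuregulin that binds ERBB3 and ERBB4, had 1 count over WT NC and 151 over WT CCl4, a pooled ratio of 124-fold (exact 95% interval 21.8 to 4910, counting error only), and 135 counts over the KO libraries. Erbb4, a further receptor for neuregulins and betacellulin, fell by 2.51 on the log2 scale (adjusted p = 0.00431 in edgeR's test), and Mst1r, the receptor for the HGF-like factor encoded by Mst1, rose by 3.42 ± 0.77 SE (adjusted p = 0.00544 in edgeR's test). Mst1 (log2 fold change -0.70, adjusted p = 0.0527 in edgeR's test) and Erbb2 (0.57, adjusted p = 0.173 in edgeR's test), the preferred partner of ERBB3, did not pass. Between KO and WT under CCl4, 0 of 6 were called in edgeR's test, with 2 higher and 1 lower at an unadjusted p under 0.05 and 1 higher and 1 lower in DESeq2. Without KO 75, 2 rose and 2 fell, against 17.2% and 20.4% of all genes.

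Of 11 genes tested that govern HGF activation, 4 rose and 4 fell with CCl4 in WT, against 29.5% and 25.0% of all genes. Plaur, the receptor that anchors urokinase, rose by 7.91 ± 1.07 SE on the log2 scale, and Plau, urokinase itself, which can cleave pro-HGF, rose by 5.50 ± 0.87 SE. Klkb1, plasma prekallikrein, fell by 2.52 on the log2 scale and Hgfac, the HGF activator that hepatocytes secrete, by 1.72, all at adjusted p of at most 0.00583 in edgeR's test. In KO against WT under CCl4, 3 of 11 fell and 0 rose in that test, against 1.61% and 3.46% of all genes. At an unadjusted p under 0.05, 4 were higher, and 3 were higher in DESeq2, counts without a matching share of all genes. Among those that fell were Plau (-3.70 ± 0.78 SE, adjusted p = 0.0417 in edgeR's test) and Plaur (-3.28 ± 0.76 SE, adjusted p = 0.0474 in edgeR's test). For Hgfac the log2 fold change was 1.08 with all libraries (adjusted p = 0.103 in edgeR's test) and 1.42 without KO 75 (adjusted p = 0.00413 in edgeR's test). Without KO 75, 4 of the 11 rose and 4 fell, against 17.2% and 20.4% of all genes.

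Of the proteases and cofactors that release EGF receptor ligands, 8 of 9 rose with CCl4 in WT and 0 fell. Of all genes, 29.5% rose and 25.0% fell. The numbers for the list were the same at an unadjusted p under 0.05 and in DESeq2, with a median log2 fold change of 2.18. Adam17, the main sheddase of most of these ligands, had 19.6, 19.4 and 22.9 CPM in WT NC and 95.8, 58.3 and 46.0 CPM in WT CCl4, a log2 fold change of 1.69 ± 0.29 SE (adjusted p = 0.00176 in edgeR's test). Adam10 rose by 1.89 ± 0.27 SE, Adam19 by 3.33 ± 0.40 SE and Adam8 by 7.01 ± 1.03 SE on the log2 scale. The 9 genes had a median of -0.86 in KO against WT under CCl4. There 0 were called in edgeR's test, 5 were lower at an unadjusted p under 0.05 and 3 were lower in DESeq2. The latter counts have no matching share of all genes here. Without KO 75, 6 fell, against 20.4% of all genes. Adam17 stood at 33.0, 53.6 and 38.9 CPM in KO 72, 75 and 79 (log2 fold change -0.67 ± 0.28 SE, adjusted p = 0.138 in edgeR's test). The macrophage and stellate marker sums given above differed in the same direction, and their part in these values was not tested.

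Most genes of the feedback inhibitor and ERK-induced lists rose with CCl4 in WT. Of 23 adaptors and kinases, 5 rose and 5 fell, with a median of -0.05, which is no larger a share than the 29.5% and 25.0% of all genes. Gab2, a docking protein, rose by 3.89 ± 0.62 SE on the log2 scale, while the kinases Map2k2 and Araf fell by 0.86 and 0.77 on that scale. In KO against WT 0 of 23 were called in edgeR's test, with 5 lower at an unadjusted p under 0.05 and 3 lower in DESeq2. Feedback inhibitors rose in 10 of 17 and fell in 2 of 17 with CCl4 in WT. Cbl, a ligase that marks EGFR for breakdown, rose by 2.60 ± 0.37 SE, and Spry2, an inhibitor of ERK signalling, by 3.19 ± 0.52 SE, and its relative Spred1 rose by 1.22. Errfi1, which binds and blocks the EGFR kinase, went the other way, from 1367, 1467 and 1491 CPM in WT NC to 319, 530.6 and 633 CPM in WT CCl4 (log2 fold change -1.55 ± 0.31 SE, adjusted p = 0.00337 in edgeR's test), and stood at 1115, 613 and 1017 CPM in KO 72, 75 and 79. Its log2 fold change in KO against WT was 0.89 ± 0.30 SE with all libraries (adjusted p = 0.0927 in edgeR's test) and 1.11 without KO 75 (adjusted p = 0.0102 in edgeR's test). Dusp5, a phosphatase of ERK, was the 1 feedback inhibitor of 17 that passed in KO against WT, with a log2 fold change of -3.56 ± 0.80 SE (adjusted p = 0.0465 in edgeR's test). In that comparison 8 of the 17 were lower and 1 higher at an unadjusted p under 0.05, with the same numbers in DESeq2. The share of all genes past either looser criterion is not given, so such counts in this paragraph cannot be read as an excess. Without KO 75, 9 fell and 2 rose, against 20.4% and 17.2% of all genes.

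Of the ERK-induced genes, 11 of 11 tested rose with CCl4 in WT, against 29.5% of all genes. In KO against WT 3 of 11 fell, against 1.61% of all genes. The transcription factor gene Fos rose by 6.07 ± 0.72 SE and the early response gene Ier3 by 6.53 ± 0.84 SE on the log2 scale in WT. The genes lower in the KO libraries were Fosl1, an AP-1 subunit, with 298 counts over WT CCl4 and 1 over the KO libraries, Plaur, also given above, and Ier3 at a log2 fold change of -2.72 ± 0.66 SE, at adjusted p from 0.0467 to 0.0493 in edgeR's test. Over WT NC, Fosl1 had 0 counts, and in WT CCl4 it stood at 11.99, 2.37 and 0.684 CPM in replicates 11, 12 and 13, so most of its counts came from replicate 11. Without KO 75, 7 of 11 fell and 1 rose, against 20.4% and 17.2% of all genes. The summed level of this list was 888 to 1918 CPM in WT CCl4 and 510, 817 and 555 CPM in KO 72, 75 and 79, with replicate 11 the highest. Macrophage sums were highest in replicate 11 as well. The part of cell content, or of signals from MET and the EGF receptor, in the feedback and ERK-induced genes was not tested.

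In KO with CCl4 against WT NC, 14.0% of all genes were higher and 8.98% lower in edgeR's test, the shares to read beside the counts that follow. Ligand shedding genes were 7 of 9 higher and 0 lower in that test, and 8 higher and 0 lower at an unadjusted p under 0.05. Adam19 had a log2 fold change of 2.29 ± 0.40 SE, Adam8 4.49 ± 0.97 SE and Rhbdf2, a cofactor of ADAM17, 1.57 ± 0.32 SE. Of the other receptors and ligands 1 of 6 rose, Nrg1, and 1 fell, Erbb4 (-2.14 ± 0.52 SE). Of 11 HGF activation genes 2 rose, Plaur (4.63 ± 1.07 SE) and Plat, the tissue plasminogen activator (3.62 ± 1.01 SE), and 1 fell, Klkb1 (-1.55 ± 0.39 SE). Of 23 adaptors and kinases 2 rose, among them Gab2 (2.48 ± 0.60 SE), and 1 fell, Map2k2 (-0.56 ± 0.14 SE). Feedback inhibitors rose in 4 of 17, among them Spry2 (2.21 ± 0.52 SE) and Socs5 (0.84 ± 0.19 SE), and fell in 1, Lrig3 (-0.74 ± 0.21 SE). ERK-induced genes rose in 5 of 11, among them Fos (5.17 ± 0.69 SE), Ier3 (3.81 ± 0.80 SE) and Epha2 (1.26 ± 0.26 SE). Plat stood at 0.775, 11.55 and 1.76 CPM in KO 72, 75 and 79. Without KO 75 its call was lost (log2 fold change 1.74, adjusted p = 0.0836 in edgeR's test). The calls of Map2k2 (adjusted p = 0.0537 in edgeR's test) and Lrig3 (adjusted p = 0.0768 in edgeR's test) were lost as well. The other genes named in this paragraph kept theirs.

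**Figure D5:**
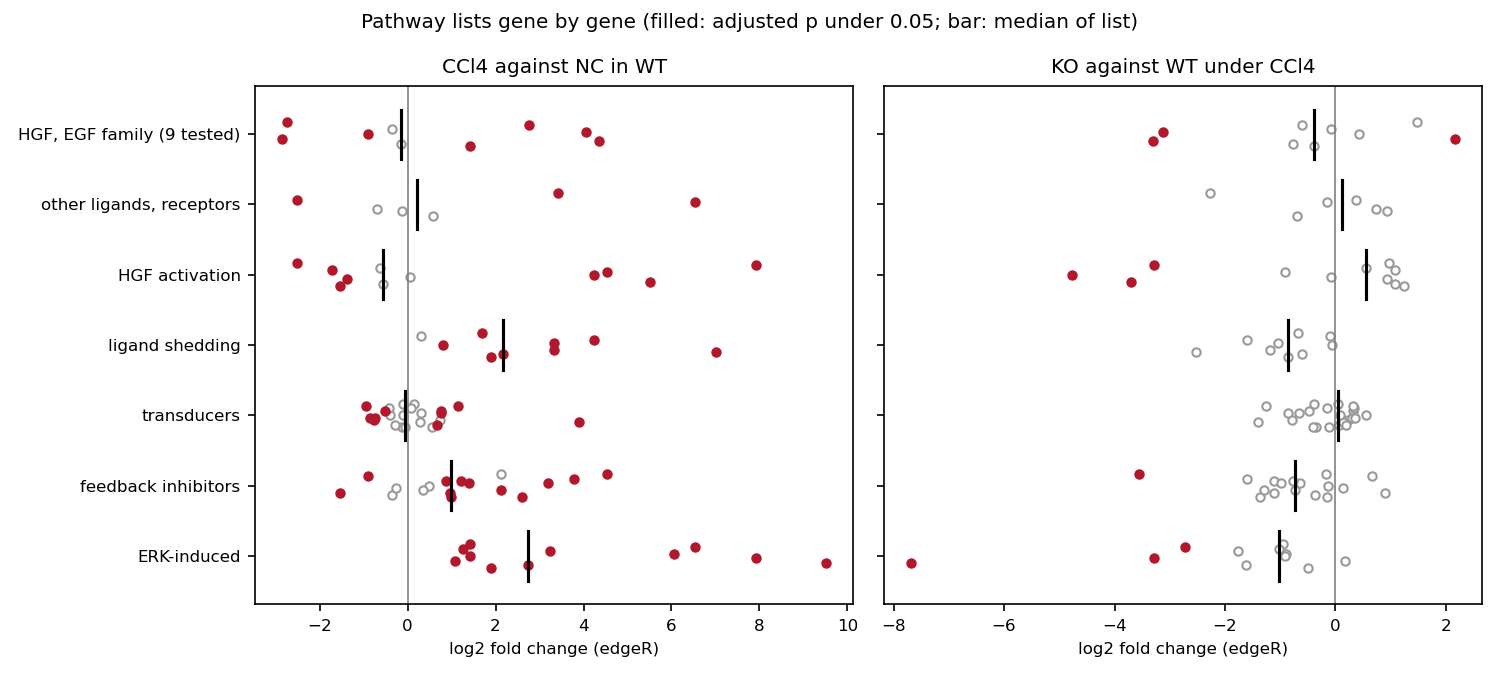
Log2 fold change (x axis) of each tested gene in 7 lists (rows), for CCl4 against NC in WT (left) and KO against WT under CCl4 (right). Filled points passed the adjusted p threshold of 0.05 and the black bar is the median of the list, which for ligand shedding is 2.18 on the left and -0.86 on the right.

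Genes whose levels followed those of a member most closely over the 9 libraries were found by the root mean square (RMS) difference of centred log2 CPM among 10640 genes. For Egfr these were Uox, urate oxidase (RMS difference 0.116), Scp2, a sterol carrier (0.165), and Aldh3a2, an aldehyde dehydrogenase (0.170), against the 1.31 by which Egfr itself varied about its mean. For Erbb3 they included Pbld2 (0.0924) and Sdr42e1 (0.110), against 1.23. For Hgf they were Cdk14 (0.172), Abi3 (0.202) and Tnfrsf21 (0.209), against 1.3. Hbegf was followed by Nfkbiz, an inducible regulator of NF-kB (0.221), Bcl2a1a (0.360) and AI504432 (0.427), against 1.78. Ereg was followed by Thsd4 (0.424), the early response gene Nr4a1 (0.441) and Dusp5 (0.499), against 1.77. Btc was nearest to Haus3, Sae1 and Dnajc10 (0.178 to 0.183, against 0.693), and Met to Fdxr, Ccdc117 and Mylk (0.137 to 0.187, against 0.522). Tgfa had no such close neighbour, the nearest being Fam109a (0.570), Tpm2 (0.647) and Cebpb (0.650), against 1.03. The nearest genes to the sparsely counted Egf, Chpf2, Fopnl and Rpl27a, lay at 0.263 to 0.370, against 0.589.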

How the data were processed

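RNA of liver samples, with hepatocyte as the labelled cell type, was sequenced in 9 libraries, 3 per group. The authors deposited raw read counts and FPKM values per gene in a single table, per the file headers. HISAT2 2.0.4, StringTie 1.3.0 and the mm10 build are named in the submitters' processing notes. The sources used here do not give the counting tool, its strand setting or the annotation release. Counts were fitted in edgeR 4.0.16 (R 4.3.3) with TMM, filterByExpr and the quasi-likelihood test over all 9 libraries, with Benjamini-Hochberg adjustment over 14134 genes and a threshold of 0.05. SE values are the log2 fold change divided by the root of F, and the steps were tested on simulated data. DESeq2 1.42.0 and limma 3.58.1 on log2(FPKM + 1) or log2(FPKM + 0.1) served as alternatives, with other scaling, filters, library sets and each library left out in turn. Levels are compared between genes only in FPKM, apart from the ligand shares that are also given in CPM. Intervals are exact, at 95%, and cover counting error only. All members are named, with the 3 smallest p-values past the threshold per list and comparison, a few genes named for their role, and the 3 nearest patterns per member. Members and lists were chosen with earlier results of these data known. Promoter windows come from RefSeq (GRCm38.p6), which matched 7 of 10 members and not Ereg, Erbb3 and Hbegf. A few genes that the naming rule covers are not reported here.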

Additional observations from a re-analysis of the deposited data

How the results depend on the processing

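With CCl4 against NC in WT, 7 members were called, and 4 of the 6 that passed the FPKM filter were called by limma on log2(FPKM + 1) and likewise 4 on log2(FPKM + 0.1), where fewer members were tested. Met was tested in both and lost its call (adjusted p = 0.194 and 0.202 in limma). It was not called on FPKM + 1 without a filter either (adjusted p = 0.256 in limma). The sign of Tgfa, never called, turned to 0.13, 0.16 and 0.13 in limma with FPKM + 1, FPKM + 0.1 and FPKM + 1 without a filter, and ranged from -0.28 to 0.05 on the log2 scale without 1 library. Egf, also never called, ranged from -0.85 to 0.02 there and from -0.59 to 0.21 in KO against WT. In KO against WT under CCl4, 717 genes and 3 members were called. Only the 6 libraries compared gave 30 genes and 0 members. DESeq2 gave 2878 genes, with 2 members higher and 2 lower. On FPKM + 0.1 limma gave 371 genes and 1 member, and on FPKM + 1 without a filter it gave 413 genes and 0 members. Leaving out 1 library gave 5 to 5453 genes and 0 to 6 members. In KO with CCl4 against WT NC, 3247 genes and 1 member were called, against 1711 genes in limma on FPKM + 1 and 1470 without its filter, 2 members with no filter on low counts and 2 in DESeq2, and 1264 to 3679 genes and 0 to 3 members without 1 library. Called genes were 489 higher and 228 lower for KO against WT in edgeR, but 306 higher and 395 lower in limma on FPKM + 1, and 1978 higher and 1269 lower against 696 higher and 1015 lower for KO against WT NC. The cause was not tested. No paired analysis was possible because the groups share no replicate number. Areg and Egf had at most 25 counts in a library, which limits their precision.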
